A study of Mus musculus with 48 samples.

Results

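The line carrying the K298E C/EBPα-ER fusion was compared with the line carrying the empty MigRI vector before 4-hydroxytamoxifen (4-HT) was given. Both were mouse 32D cells, a myeloid progenitor line, that express the BCR/ABL oncoprotein of chronic myeloid leukaemia. The arrays were chosen by their labels: 3 of the K298E fusion at 0 h and 3 of the empty vector at 0 h, which are 6 of the 48 arrays of the series. The comparison ran over all 45037 probe sets of the Affymetrix MOE430_2 array that are not controls. The remaining arrays served as reference points, namely the 3 of the line with the wild-type (WT) fusion at 0 h, the 9 K298E and the 9 vector arrays taken at 6, 9 and 12 h after 4-HT, and the 12 of a line with the Δ(177-191) fusion. All lines were grown in serum-containing medium and carried the same retroviral backbone, so K298E and vector cells shared BCR/ABL and the vector and differed, by the labels, in the fusion. The labels describe 1 transduced line for each construct and do not say whether a line was a pool or a clone. Replicate arrays are called triplicates in one place and separate experiments in another, so the p-values below measure the spread between these arrays and not between independently made lines.

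C/EBPα is a leucine zipper transcription factor that binds DNA as a dimer through its basic region, and granulocytes do not form without it. It acts by switching on genes of granules, phagocyte receptors and chemokines, and by holding back cell division, in part through contacts with other proteins that do not need DNA. The K298E change lies in the DNA-binding region, and the labels call the mutant unable to bind DNA. In fusions with the estrogen receptor domain that takes up hormone, chaperones hold the protein inactive until a ligand such as 4-HT is added. The 0 h arrays therefore set the line with the DNA-binding mutant, before its ligand was added, beside a line with no fusion.

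The values were MAS5 signals, a measure of probe set brightness, scaled so that the trimmed mean of each array was 100.0. The median signal was 13 to 14 on the K298E arrays and 12 to 15 on the vector arrays, and 1.60% to 1.67% and 1.04% to 2.29% of probe sets were at 0. Gapdh control probe sets, 3′ over 5′, ran from 0.810 to 0.836 in K298E and from 0.835 to 0.880 in vector arrays. Over the 10746 probe sets with a mean signal of at least 100, arrays correlated at r = 0.989 to 0.992 within a line and at 0.974 to 0.977 between the lines. The first principal component of the 6 arrays held 57.4% of the variance and separated the lines, at 12.5 to 14.6 for K298E and -14.1 to -12.4 for vector. All 13 markers fixed for 32D progenitors were measured. Their summed signal was 13102 to 14269 in K298E arrays and 12282 to 12750 in vector arrays, although Kit, Cd34 and Elane lay near the floor in both, and 4 of the 13 were higher in K298E. Fibroblast markers, which packaging cells would bring, summed to 72 to 89 in K298E and 85 to 131 in vector arrays over 8 genes, and T cell, B cell and erythroid markers lay near the floor in both lines.

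Differences are given as K298E minus vector on the log2(signal + 3) scale, which understates the change of dim genes, with the standard error (SE) of the fit. A result passed at an adjusted p under 0.05 over all probe sets. In all, 1050 probe sets passed, which is 2.33% of those tested, 479 higher and 571 lower in K298E. With 1 probe set for each of 18193 genes, 305 genes (1.68%) were higher and 358 (1.97%) lower. The differences were small on the whole: the median size among the genes that passed was 0.46, and 27 of the higher and 65 of the lower genes differed by 2-fold or more. Among the 6518 genes with a mean signal of at least 100, called bright genes below, 282 were higher (4.33%) and 282 lower (4.33%), around a median of 0.01. Counts of gene list members at 0 h are to be read beside these shares. The number of probe sets that passed depended on which replicate was left out. There were 713 without replicate 1 of every group, 276 without replicate 2 and 331 without replicate 3. When each array was centred on its median, 218 probe sets passed, and 33 genes were higher and 112 lower. In arrays of bulk RNA, fewer cells of one kind and less RNA per cell cannot be told apart.

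The estrogen receptor probe set that follows the fusion was read first. Esr1 had signals of 1316, 1403 and 1599 in K298E arrays, against 19, 17 and 19 in vector arrays, a difference of 6.08 ± 0.24 (adjusted p = 5.66e-23). The other 2 Esr1 probe sets differed by -0.39 and -0.38 and did not pass (adjusted p = 0.89 and 0.162). Cebpa, the gene of C/EBPα itself, had signals of 392, 424 and 437 in K298E arrays, against 194, 198 and 179 in vector arrays, a difference of 1.12 ± 0.14 (adjusted p = 5.54e-07). The K298E arrays all lay above the vector arrays for both genes. Whether the Cebpa probe set also reads RNA of the fusion was not tested.

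The other C/EBP genes did not pass. Cebpb, a relative that can stand in for C/EBPα in stressed granulopoiesis, was at 640, 583 and 681 in K298E arrays and at 606, 585 and 632 in vector arrays, a difference of 0.06 ± 0.10 (adjusted p = 0.938). Cebpd differed by -0.16 ± 0.13 and Cebpg by -0.17 ± 0.08, with adjusted p = 0.797 and 0.386. Of the 19 measured genes listed as C/EBP family and partners, Cebpa was higher and 3 were lower: Ddit3, the stress-induced C/EBP relative CHOP, Trib3, a pseudokinase of the Tribbles family, and Nfil3, a leucine zipper repressor. The list's median was -0.15. Nfil3 fell by 0.78 ± 0.14 (adjusted p = 0.000498), with signals of 263, 271 and 347 in K298E arrays, against 463, 473 and 576 in vector arrays.

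After Esr1, the highest genes with a signal of 100 or more were Ppbp, Ccl9 and Clec11a. Ppbp, the precursor of the platelet chemokine CXCL7, had signals of 172, 182 and 165 in K298E arrays, against 17, 21 and 27 in vector arrays, a difference of 2.85 ± 0.24 (adjusted p = 1.42e-11). Ccl9, a CC chemokine of mouse myeloid cells, had 860, 881 and 817 in K298E, against 148, 171 and 163 in vector arrays, a difference of 2.39 ± 0.13 (adjusted p = 3.75e-18), and its other probe set gave 2.41. Clec11a, a secreted lectin that acts as a growth factor for blood progenitors, had 303, 318 and 313 in K298E, against 65, 73 and 71 in vector arrays, a difference of 2.11 ± 0.29 (adjusted p = 3.32e-06). For each of these 3 genes the lowest K298E array lay far above the highest vector array.

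Next came Krt80, a keratin (1.76 ± 0.17), and Ifitm6, a membrane protein of the interferon-induced family (1.25 ± 0.12). Ifitm6 is a bright gene, with 1365, 1376 and 1397 in K298E arrays and 555, 600 and 581 in vector arrays. Cd52, a lipid-anchored glycoprotein of leukocytes (1.24 ± 0.11), Pirb, an inhibitory receptor of myeloid cells (1.02 ± 0.11), and Prtn3, the proteinase 3 of primary granules (1.02 ± 0.13), were each at least 2-fold higher. The rest of the 15 highest genes with a signal of 100 or more in either line were Ckm, the muscle creatine kinase (1.01 ± 0.20), Upp1, a uridine phosphorylase (0.99 ± 0.08), Pdp1, a phosphatase that activates pyruvate dehydrogenase (0.89 ± 0.11), Emb, which escorts lactate transporters to the membrane (0.87 ± 0.11), and Aven, an inhibitor of caspase activation (0.87 ± 0.14). On all 15 the K298E arrays lay above every vector array, as they did for 10.1% of all genes. The same arrays chose the 15, so this is largely built in and adds no support. Ckm no longer passed without replicate 2, and the other 14 passed under every alternative that has a test.

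**Figure D1:**
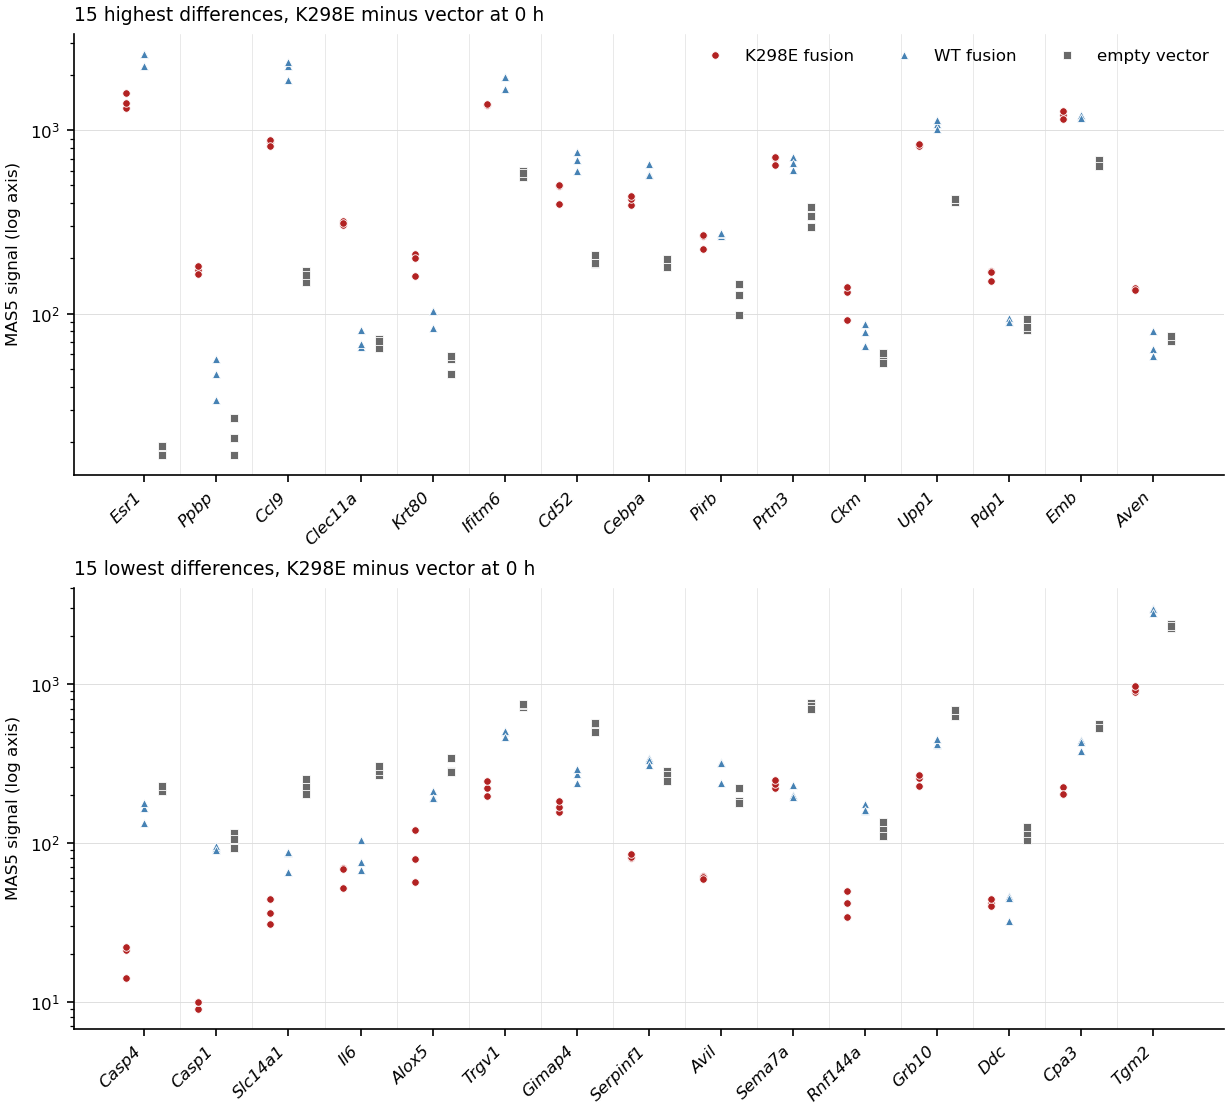
MAS5 signal on a log axis for the 15 highest (top) and 15 lowest (bottom) differences between K298E and vector at 0 h among genes with a signal of 100 or more in either line. Each point is 1 array, with the K298E fusion as red circles, the WT fusion as blue triangles and the empty vector as grey squares. The red and grey points do not overlap for any of the 30 genes, which were chosen on these same arrays. The WT points lie near the red ones for some genes, such as Pirb and Sema7a, and near the grey ones for others, such as Clec11a and Casp1.

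Among dimmer genes S100a9, Ccl6 and Anxa3 had the largest positive differences. S100a9, a subunit of the neutrophil protein calprotectin, was at 45, 25 and 30 in K298E arrays, against 1, 0 and 2 in vector arrays, a difference of 3.18 ± 0.31 (adjusted p = 7.45e-10). Its partner S100a8 was at 32, 23 and 31 in K298E arrays, against 16, 3 and 2 in vector arrays (1.92 ± 0.35). Ctsg, the cathepsin G of primary granules, was at 26, 27 and 34 in K298E arrays, against 6, 3 and 2 in vector arrays (2.30 ± 0.42). At such signals the size depends on the added constant, and S100a9 ranged from 0.97 with 32 added to 4.20 with 1 added, while it passed with each. Ccl6, another CC chemokine, differed by 2.60 ± 0.23 and Anxa3, an annexin of neutrophils, by 2.41 ± 0.19. Both were at 6 to 21 in vector arrays and at 74 to 92 in K298E arrays.

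The granulocyte lists held genes of both directions, and most of their members did not pass. Among all genes 1.68% were higher and 1.97% lower, and among bright genes 4.33% each way. Of 13 primary granule genes 3 were higher (Ctsg, Prtn3 and the lysosomal enzyme gene Gusb) and 1 lower (Nkg7, a granule membrane protein, -1.05 ± 0.22). Mpo, the myeloperoxidase of the same granules, was at 34, 32 and 17 in K298E arrays and at 20, 10 and 14 in vector arrays, which overlap, and did not pass (adjusted p = 0.493). Of 17 later granule and S100 genes the 2 calprotectin subunits were higher and 3 lower: Ltf, the iron-binding lactoferrin (-1.21 ± 0.20), Lcn2, which binds bacterial iron carriers (-0.98 ± 0.14), and Ltb4r1, a leukotriene B4 receptor (-0.60 ± 0.13). Lcn2 had signals of 223, 214 and 224 in K298E arrays, against 432, 436 and 443 in vector arrays. Of 21 phagocyte oxidase, integrin and granulocyte receptor genes Anxa3, Pirb and the adaptor gene Tyrobp (0.40 ± 0.09) were higher, and Fcgr3, an Fc receptor, was lower (-0.51 ± 0.11). The medians of these lists were 0.11, 0.12 and 0.12. Of their members 8 of 13, 9 of 17 and 15 of 21 were bright, and a dim member that did not pass may still differ. The summed signal of 5 neutrophil markers was 101 to 125 in K298E and 74 to 120 in vector arrays, and the part of such cells in these differences was not tested.

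Of 24 monocyte and macrophage genes Ctss, a lysosomal protease (0.77 ± 0.18), and Adgre1, the macrophage antigen F4/80 (0.77 ± 0.08), were higher, and Vsir, an inhibitory receptor of the immunoglobulin family, was lower (-0.85 ± 0.16). Adgre1 had signals of 1055, 1115 and 1108 in K298E arrays, against 580, 688 and 656 in vector arrays. Cd68, Csf1r, Cd14 and Mrc1, the other macrophage markers fixed for the check of cell types, did not pass, and the summed signal of the 5 was 1535 to 1625 in K298E and 1049 to 1127 in vector arrays, nearly all of it from Adgre1 and Cd68. The interleukin 3 receptor chain genes Csf2rb and Csf2rb2 were both higher: Csf2rb at 1715, 1771 and 1846 in K298E arrays and at 1371, 1276 and 1436 in vector arrays (0.39 ± 0.07), and Csf2rb2 by 0.56 ± 0.08. These are near-identical neighbouring copies, so how far 1 probe set reads both was not tested. Within the 27 cytokine and growth factor receptors, Il18r1, a chain of the interleukin 18 receptor (-1.03 ± 0.17), and Il2ra, part of the high-affinity receptor for interleukin 2 (-0.65 ± 0.11), were lower.

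The transcription factors that govern myeloid progenitors differed little. Spi1, the gene of PU.1, was at 653, 575 and 629 in K298E arrays, against 478, 516 and 441 in vector arrays, a difference of 0.37 ± 0.10 (adjusted p = 0.0297) that was lost under 9 of the alternatives. Myb and Gata2, which the title of the series names, differed by 0.24 ± 0.10 and 0.05 ± 0.09 and did not pass (adjusted p = 0.295 and 0.933). Gfi1, a repressor needed for granulocytes, differed by 0.19 ± 0.10, Myc by 0.03 ± 0.09 and Csf3r, the receptor for granulocyte colony-stimulating factor, by -0.26 ± 0.31, none past the threshold. Of the 41 listed transcription factors, Tcf3, an E protein, and Spi1 were higher and Fli1, an ETS factor, was lower (-0.45 ± 0.09). Tcf3 lost its call under 8 of the alternatives. Kit lay near the floor in both lines, at 14, 6 and 7 in K298E arrays and at 18, 2 and 2 in vector arrays. Abl1 and Bcr, the genes joined in the oncogene, differed by -0.04 ± 0.11 and -0.09 ± 0.11 and did not pass.

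Megakaryocyte, mast cell and basophil genes moved apart rather than together. Of 15 erythroid and megakaryocyte genes Ppbp, its neighbour Pf4 (platelet factor 4, 0.76 ± 0.16) and Tfrc, the transferrin receptor (0.42 ± 0.08), were higher. Itgb3, the integrin β3 of platelets, and Vwf were lower, and Itgb3 had signals of 9, 6 and 9 in K298E arrays, against 71, 58 and 52 in vector arrays (-2.53 ± 0.40, with -2.48 on its other probe set). Vwf lost its call under 8 of the alternatives. The summed signal of 4 megakaryocyte markers was 1465 to 1541 in K298E and 1579 to 1790 in vector arrays, most of it from Itga2b, which did not pass (adjusted p = 0.0512). Of 23 mast cell, basophil and eosinophil genes 1 was higher, the steroid side-chain cleavage enzyme gene Cyp11a1 (0.86 ± 0.12), and 3 were lower, Hdc, Il6 and Cpa3. Cpa3, the carboxypeptidase of mast cell granules, was at 203, 223 and 203 in K298E arrays, against 539, 560 and 528 in vector arrays (-1.36 ± 0.12). Hdc, which makes histamine, was at 3, 1 and 1 in K298E arrays, against 23, 25 and 15 in vector arrays (-2.36 ± 0.32). The summed signal of 5 mast cell and basophil markers was 217 to 241 in K298E and 559 to 606 in vector arrays, with Ms4a2, Fcer1a and Mcpt8 near the floor in both, and the part of such cells in these differences was not tested. None of 23 lymphoid and 22 fibroblast genes passed in either direction, where 1.68% of all genes were higher and 1.97% lower. Only 2 members of each of these lists were bright, and a dim member that did not pass may still differ.

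The lowest genes were 2 neighbouring inflammatory caspases. Casp4, the mouse caspase-11 that senses bacterial lipopolysaccharide in the cytosol, had signals of 21, 22 and 14 in K298E arrays, against 211, 212 and 227 in vector arrays, a difference of -3.34 ± 0.18 (adjusted p = 1.97e-18). Casp1, the caspase that matures interleukin 1β in inflammasomes, had 9, 10 and 10 in K298E, against 115, 106 and 92 in vector arrays, a difference of -3.08 ± 0.18 (adjusted p = 2.4e-17). On both genes the K298E arrays were at or near the arrays' median signal, and the vector arrays lay several-fold above it. WT arrays were at 133, 166 and 177 for Casp4 and at 93, 96 and 90 for Casp1. Under all alternatives Casp4 stayed at -2.29 or below and Casp1 at -1.71 or below, with the smallest sizes when 32 was added. Casp12, which lies next to them and was named after its values were seen, was dim in both lines, at 9, 9 and 7 in K298E arrays and 20, 9 and 3 in vector arrays (-0.07 ± 0.65).

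Because these neighbours were the lowest genes and moved together, the stretches from 250 bases before to 50 bases after their start sites are shown, as RefSeq gives them for GRCm38.p6. Both lie on the plus strand, at chr9:5308599-5308898 for Casp4 and chr9:5298267-5298566 for Casp1.
Casp4: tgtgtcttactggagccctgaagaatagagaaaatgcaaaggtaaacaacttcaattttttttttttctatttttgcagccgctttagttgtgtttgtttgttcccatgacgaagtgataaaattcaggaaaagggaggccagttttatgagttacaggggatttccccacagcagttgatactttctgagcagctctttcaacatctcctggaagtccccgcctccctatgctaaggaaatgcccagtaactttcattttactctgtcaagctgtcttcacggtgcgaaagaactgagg
Casp1: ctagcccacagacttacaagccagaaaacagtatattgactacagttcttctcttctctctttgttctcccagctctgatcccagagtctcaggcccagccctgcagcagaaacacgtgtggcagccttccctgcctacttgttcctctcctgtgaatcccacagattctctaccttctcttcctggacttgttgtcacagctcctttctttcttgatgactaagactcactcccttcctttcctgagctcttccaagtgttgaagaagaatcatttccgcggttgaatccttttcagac
The C/EBP consensus searched was TTGCNNAA on either strand. It is in neither window, nor in those of Ppbp and Ccl9, and 10.8% of the 32851 promoter windows hold it. Of the higher genes with a window 8.56% held it and of the lower genes 8.05%, against 9.04% of all measured genes with one.

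Il6, Lta and Selenop, which encode secreted proteins, were among the lowest genes. Il6, the inflammatory cytokine interleukin 6, had signals of 69, 68 and 52 in K298E arrays, against 266, 281 and 303 in vector arrays, a difference of -2.13 ± 0.27 (adjusted p = 4.83e-07). Lta, the cytokine lymphotoxin α, had 12, 10 and 6 in K298E, against 53, 55 and 56 in vector arrays (-2.26 ± 0.50), and lost its call under 3 of the alternatives. Selenop, a selenium carrier, had 12, 7 and 20 in K298E, against 104, 95 and 99 in vector arrays (-2.76 ± 0.36). For each of the 3 the highest K298E array lay far below the lowest vector array.

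Further genes among the 15 lowest included Slc14a1, a urea transporter (-2.53 ± 0.28), Alox5, the 5-lipoxygenase of leukotriene synthesis (-1.83 ± 0.31), and Trgv1, a gene segment of the T cell receptor γ chain (-1.72 ± 0.22). Gimap4, a GTPase of immune cells, had signals of 157, 169 and 182 in K298E arrays, against 496, 559 and 568 in vector arrays (-1.66 ± 0.10). Its neighbours Gimap8, Gimap5, Gimap3 and Gimap1, named after their values were seen, were lower as well, by -0.83, -0.86, -0.64 and -0.44, and such related genes may share probes. Serpinf1, a secreted inhibitor of vessel growth (-1.65 ± 0.25), Avil, an actin-binding protein (-1.62 ± 0.17), and Sema7a, a membrane-anchored semaphorin (-1.62 ± 0.13), came next. Rnf144a, a ubiquitin ligase (-1.48 ± 0.17), Grb10, an adaptor of receptor tyrosine kinases (-1.40 ± 0.09), Ddc, which makes dopamine and serotonin (-1.39 ± 0.17), and Tgm2, a transglutaminase (-1.32 ± 0.10), completed the 15 with Cpa3. On all 15 the K298E arrays lay below every vector array, as they did for 10.6% of all genes. This too is largely built in by the choice of the 15 on these arrays. Alox5 alone of the 15 lost its call under an alternative, without replicate 1.

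Of 41 chemokine, cytokine and receptor genes 3 were higher (Ccl6, Ccl9 and the chemokine receptor gene Ccr1, 0.92 ± 0.20) and 5 lower: Lta, Il6, Ccl5 (-1.64 ± 0.29), Ccl17 (-0.99 ± 0.21) and the decoy receptor gene Ccrl2 (-0.71 ± 0.19). Ccl5, a chemokine for T cells and monocytes, was at 20, 16 and 11 in K298E arrays, against 51, 59 and 52 in vector arrays. Cd74, the invariant chain of MHC class II, was the 1 of 19 antigen presentation genes that passed, at 680, 692 and 660 in K298E arrays, against 1199, 1289 and 1260 in vector arrays (-0.88 ± 0.11). Of 40 adhesion and surface genes Cd52 and Emb were higher, and Itgb3 and the tetraspanin genes Cd82 (-0.54 ± 0.08) and Tspan32 (-0.48 ± 0.09) were lower. Tspan32 has another probe set at 0.05 that did not pass (adjusted p = 0.978). The direction of single chemokine genes thus differed within the list, whose median was -0.13.

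Genes of chromosome 9 were lower as a body. This was noticed in these data and not asked beforehand. Of its 384 bright genes 77 were lower (20.1%) and 5 higher (1.30%), against 4.33% each way for all bright genes, and 82.3% had a difference below 0. The median was -0.19. Over the other 19 chromosomes measured, medians ran from -0.03 to 0.08, and the share lower ran from 1.85% to 6.94%. Chromosome 9 held 5.89% of the bright genes but 27.3% of those that were lower, and without it 3.34% of bright genes were lower. Casp4, Casp1 and Sema7a are among its genes. The shift was spread along the chromosome: in each of 10 consecutive blocks of 38 or 39 genes the median was below 0, between -0.27 and -0.11.

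Array by array, the median of chromosome 9 genes minus that of other genes, relative to the vector mean at 0 h, was -0.205, -0.215 and -0.209 in K298E arrays at 0 h, against 0.010, 0.001 and -0.003 in vector arrays. The means were -0.209 ± 0.005 and 0.003 ± 0.007 (SD, n = 3 each). The vector arrays at 0 h are their own reference, so their mean lies near 0 by construction. The shift was noticed in these 6 arrays, so no test over them is given. The 9 K298E and 9 vector arrays taken after 4-HT differed by -0.18. Their signals do not enter the 0 h differences but do enter the choice of bright genes and probe sets. An exact permutation of these arrays, without regard to time, gave p = 4.1e-05, the smallest that 9 against 9 allows. These are further arrays of the same lines in which the shift was noticed, and the labels describe a single line for each construct. The p-value thus compares repeat arrays of lines already seen to differ, and it adds no support beyond the values themselves. Whether the construct brought the shift was not tested. All 12 K298E arrays lay between -0.222 and -0.188, while the 12 vector arrays lay between -0.037 and 0.010, the 12 WT arrays between -0.057 and 0.027 and the 12 Δ(177-191) arrays between 0.124 and 0.207. Against WT at 0 h the K298E median on chromosome 9 was -0.16, and 19.3% of its bright genes were lower. On the other chromosomes medians against WT ran from 0.003 to 0.08, and 3.83% to 9.80% of bright genes were lower. Over 20 alternatives in processing, the 0 h shift ran from -0.22 to -0.20. DNA copy number was not measured here, and its part in the shift was not tested.

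**Figure D2:**
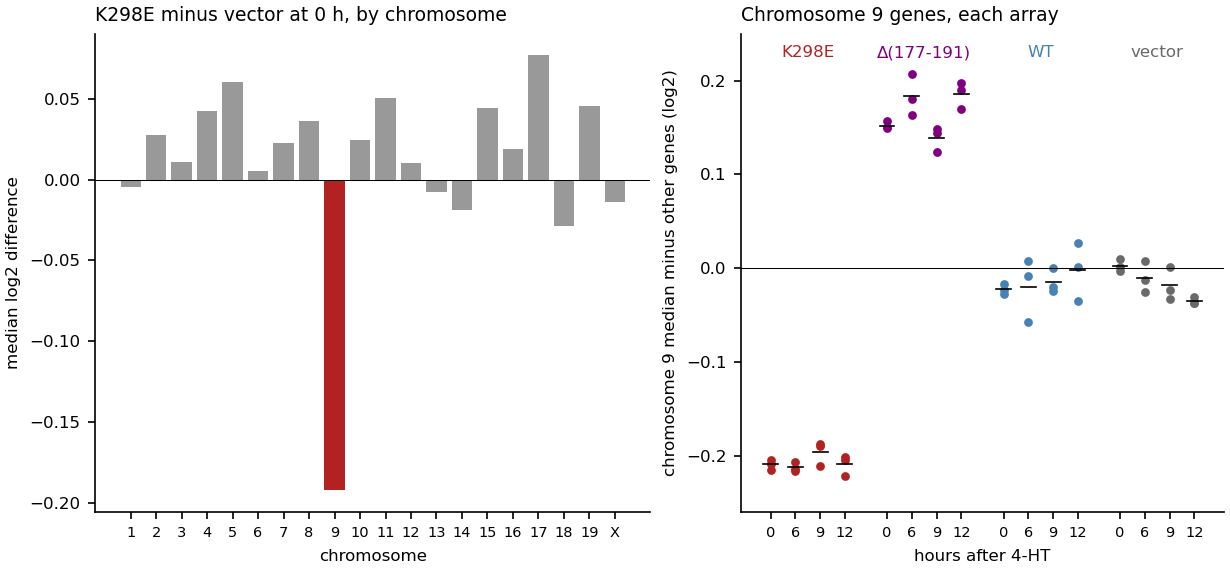
Left, the median log2 difference of bright genes, K298E minus vector at 0 h, for each chromosome, with chromosome 9 in red at -0.19 and the others between -0.03 and 0.08. Right, for each of the 48 arrays, the median of chromosome 9 genes minus that of other genes, relative to the vector mean at 0 h, by line and hours after 4-HT, with the mean of 3 arrays as a black line. The K298E arrays lie between -0.222 and -0.188 at all 4 times, apart from those of the other lines.

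Chromosome 9 enters several gene lists. Of 30 BCL2 family and apoptosis genes Aven was higher and 9 were lower, where 1.97% of all genes and 4.33% of bright genes were lower. Of the 9, 4 lie on chromosome 9: Casp4, Casp1 and the neighbouring inhibitor of apoptosis genes Birc3 (-0.82 ± 0.13) and Birc2 (-0.52 ± 0.12, named after its values were seen). The other 5 were Bcl2, the survival protein first found in lymphoma (-0.55 ± 0.12), Bbc3 and Bcl2l11, which encode the death-promoting proteins PUMA and BIM (-0.51 ± 0.11 and -0.50 ± 0.12), Casp6 (-0.45 ± 0.08) and Cflar, an inhibitor of caspase 8 (-0.41 ± 0.12). Genes for and against cell death were both among the lower ones. In other lists Fli1, Ltf, Ccrl2, Car12 and Gclc, all lower, also lie on chromosome 9. Ccr1 (0.92) and Cyp11a1 (0.86) lie there too and were higher. Bcl2 was at 434, 440 and 410 in K298E arrays, against 550, 666 and 672 in vector arrays, and its 4 other probe sets gave -0.40 to -0.65.

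Some genes that copy DNA were slightly higher in K298E cells. Of 43 DNA replication and G1/S genes 10 were higher and 0 lower, with a median of 0.22, where 1.68% of all genes and 4.33% of bright genes were higher. In 27 of the 43 the K298E arrays lay above every vector array, as in 10.1% of all genes. Of the 43, 39 were bright, against 6518 of all 18193 genes, so the shares are not of equally bright genes. Cdc6, which loads the replicative helicase, had signals of 259, 237 and 219 in K298E arrays, against 145, 163 and 172 in vector arrays (0.57 ± 0.12, adjusted p = 0.0029). Gins4, a subunit of the active helicase, was at 363, 380 and 372 in K298E, against 276, 265 and 252 in vector arrays (0.49 ± 0.09). Rrm2, the regulated subunit of ribonucleotide reductase, was at 1206, 1170 and 1113 in K298E, against 750, 917 and 905 in vector arrays (0.44 ± 0.09). The other 7 were Rfc2, Gins1, Tk1, Cdt1, Mcm10, Orc2 and Prim1, at 0.27 to 0.46. None of the 10 passed without replicate 2 or with median centring, although the list's median stayed between 0.19 and 0.24 under all alternatives.

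Genes of ribosome production and the MYC network gave similar counts. Of 43 such genes 8 were higher and 0 lower, with a median of 0.20, where 1.68% of all genes and 4.33% of bright genes were higher. Rrp12 and Ddx21, which process ribosomal RNA, differed by 0.69 ± 0.16 and 0.55 ± 0.09, and Bop1, which matures the large subunit, was at 551, 527 and 503 in K298E arrays, against 398, 374 and 402 in vector arrays (0.43 ± 0.07). The others were Grwd1, Utp20, Cad, Nolc1 and Nip7, at 0.27 to 0.45. Ddx21 has another probe set at 0.22 that did not pass (adjusted p = 0.606). With median centring none of the 8 passed, and the list's median was 0.16. Srm, the spermidine synthase, was higher by 0.39 ± 0.07, with 1538, 1438 and 1626 in K298E arrays, against 1179, 1172 and 1152 in vector arrays. Hsph1 and Ahsa1, helpers of the chaperones HSP70 and HSP90, were the 2 of 25 heat shock genes that passed, at 0.54 ± 0.07 and 0.37 ± 0.07. Ahsa1 has another, dimmer probe set at -0.52 that did not pass.

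Mitotic genes did not share this. Of 40 G2/M genes 0 were higher and 2 lower, Ccnb2, a mitotic cyclin (-0.39 ± 0.07), and Anln, an actin-binding protein of the cleavage furrow (-0.35 ± 0.09), and both lie on chromosome 9. Anln lost its call under 7 of the alternatives. Trip13, a mitotic checkpoint ATPase, was higher by 0.48 ± 0.10. Its other probe sets differed by 0.12 and 0.08 and did not pass (adjusted p = 0.9 and 0.991). Of 28 CDK, D cyclin and CDK inhibitor genes the 1 that passed was Cdkn2d, the CDK4 inhibitor p19, also on chromosome 9, at 512, 541 and 538 in K298E arrays, against 703, 664 and 736 in vector arrays (-0.40 ± 0.07). Cdk2 and Cdk4, the kinases that C/EBPα is known to bind, differed by 0.22 ± 0.09 and 0.19 ± 0.08, and Cdkn1a, the inhibitor p21, by -0.04 ± 0.10, none past the threshold. The cytosolic ribosomal proteins had 0 of 39 past it, and their median of 0.13 became -0.004 with quantile normalization.

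**Figure D3:**
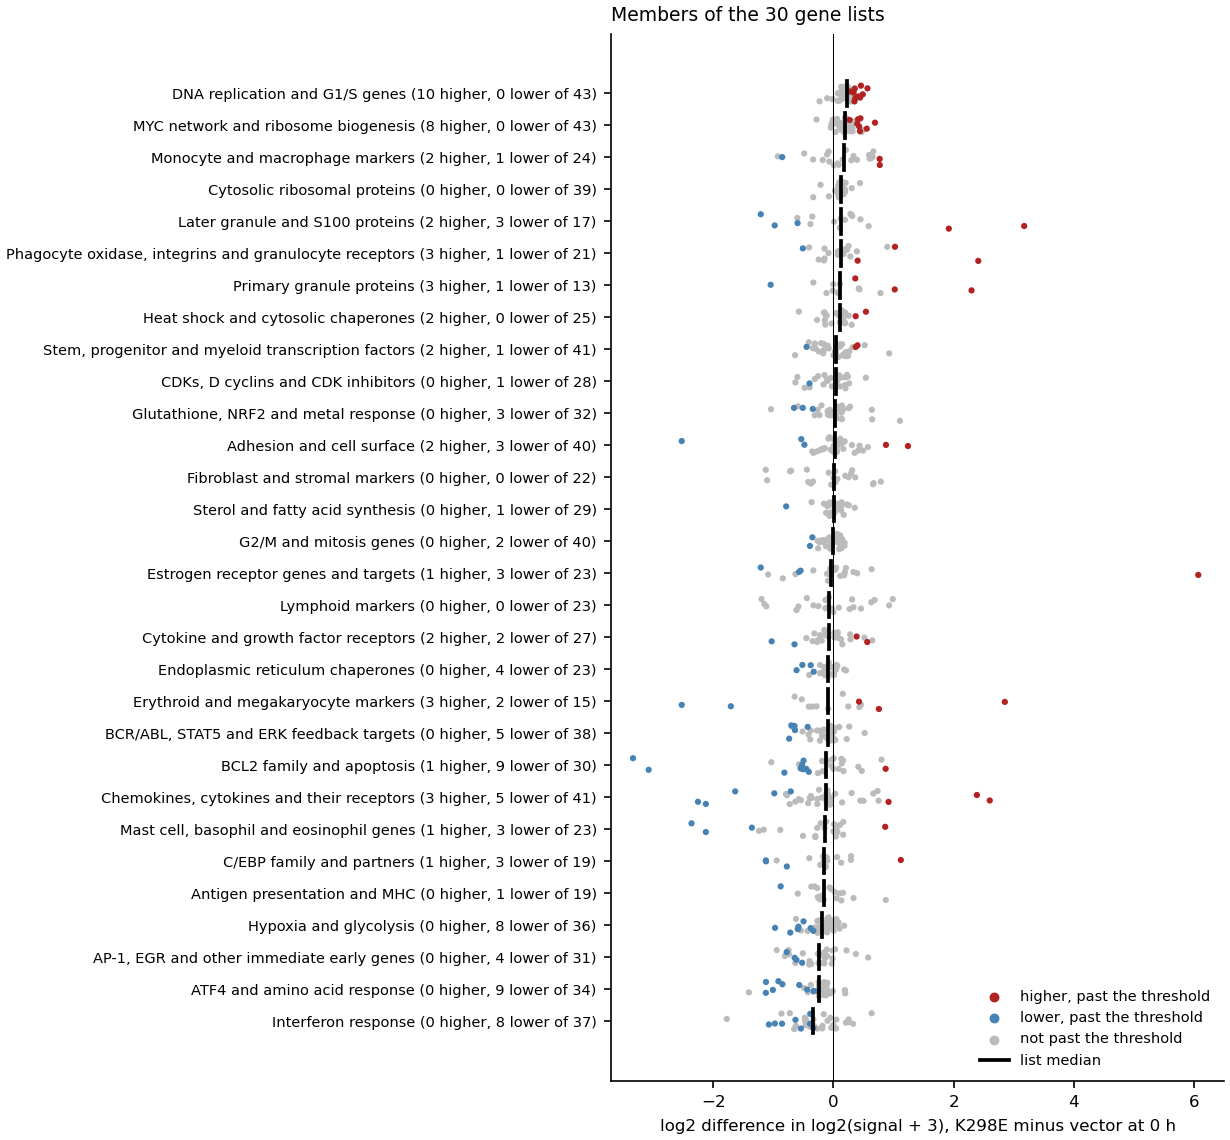
Log2 difference, K298E minus vector at 0 h, for each measured member of the 30 gene lists, in order of the list median (black bar). Red points are members higher and blue points members lower past the threshold, and grey points did not pass. DNA replication and ribosome biogenesis stand at the top with medians of 0.22 and 0.20, and the ATF4 and interferon lists at the bottom with -0.24 and -0.33; Esr1, the rightmost point, is at 6.08.

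Some amino acid response genes were lower. ATF4 is a leucine zipper factor that pairs with C/EBP proteins and turns on amino acid transport and synthesis when amino acids run short or the endoplasmic reticulum is stressed. Of 34 measured genes of this response 9 were lower and 0 higher, with a median of -0.24, where 1.97% of all genes and 4.33% of bright genes were lower. In 22 of the 34 the K298E arrays lay below every vector array, as in 10.6% of all genes. Of the 34, 24 were bright, a larger share than among all genes. Ddit3 had signals of 170, 155 and 168 in K298E arrays, against 341, 374 and 372 in vector arrays (-1.13 ± 0.16, adjusted p = 7.92e-06). Trib3 had 263, 291 and 252 in K298E, against 528, 621 and 621 in vector arrays (-1.12 ± 0.15, adjusted p = 8.45e-07). Slc7a11, the cystine carrier, had 32, 31 and 28 in K298E, against 68, 77 and 50 in vector arrays (-1.01 ± 0.23). All 3 were at about 2-fold lower signals with no overlap.

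The other 6 were Atf5, a related leucine zipper factor (-0.92 ± 0.15), Nupr1, a small stress protein (-0.85 ± 0.12), Slc1a4, a carrier of neutral amino acids (-0.57 ± 0.13), Mthfd2, a mitochondrial folate enzyme (-0.44 ± 0.08), Slc7a1, the arginine carrier (-0.33 ± 0.09), and Asns, the asparagine synthetase (-0.26 ± 0.06). Asns was at 1552, 1608 and 1637 in K298E arrays, against 1929, 1885 and 1926 in vector arrays, and lost its call under 8 of the alternatives. Between 5 and 12 members were lower under all alternatives, and no member was higher under any. ATF4 and C/EBP dimers bind the element TGATGNAA, a joined site of both factors. This element was searched after the list's values were seen. It lies in 5 of the 9 lower members' promoter windows, in 4 of the 18 windows of members that did not pass, and in 3.97% of all 32851 windows. The matches are shown in capitals with their surroundings, 5′ to 3′ along each gene's own strand, which is the minus strand for all 5.
Asns, chr6:7693199-7693258: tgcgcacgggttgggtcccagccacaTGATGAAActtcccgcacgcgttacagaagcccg
Nupr1, chr7:126625547-126625606: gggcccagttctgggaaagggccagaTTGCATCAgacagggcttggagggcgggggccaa
Slc1a4, chr11:20332684-20332743: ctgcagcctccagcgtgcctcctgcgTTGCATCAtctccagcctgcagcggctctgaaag
Slc7a11, chr3:50443627-50443705: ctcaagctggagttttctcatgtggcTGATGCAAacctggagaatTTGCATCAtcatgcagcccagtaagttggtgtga
Trib3, chr2:152344013-152344072: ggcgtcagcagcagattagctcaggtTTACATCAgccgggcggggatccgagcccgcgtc
Asns and the first site of Slc7a11 carry the element as spelled, and the rest carry its complement. Among all lower genes with a window 5.37% held it, and among all higher genes 2.72%. A match describes letters in the window and says nothing of what is bound there.

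Few endoplasmic reticulum chaperone and stress genes passed. Of 23 such genes 4 were lower and 0 higher, around a median of -0.09, where 1.97% of all genes and 4.33% of bright genes were lower. With median centring, without replicate 2 or without replicate 3 of every group, 1 of 23 was lower. The 4 were Ern1, the stress sensor IRE1 (-0.61 ± 0.11), Dnajb9 (-0.52 ± 0.12) and Herpud1 (-0.33 ± 0.09), which act in the disposal of misfolded proteins, and Manf, a secreted stress protein whose gene lies on chromosome 9 (-0.38 ± 0.08). Ern1 was at 216, 247 and 215 in K298E arrays, against 353, 344 and 344 in vector arrays. Its other probe sets, all dimmer, ran from -0.50 to 0.29 and did not pass (adjusted p = 0.24 or more).

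Some interferon response genes were lower. Of 37 measured genes 8 were lower and 0 higher, with a median of -0.33, where 1.97% of all genes and 4.33% of bright genes were lower. Usp18, which removes the ubiquitin-like modifier ISG15, had signals of 98, 106 and 113 in K298E arrays, against 228, 223 and 226 in vector arrays (-1.08 ± 0.14, adjusted p = 5.46e-07). Ifi27 was at 580, 613 and 611 in K298E, against 890, 884 and 857 in vector arrays (-0.54 ± 0.08, adjusted p = 4.62e-06). The others were Irf7, a driver of the response (-0.98 ± 0.25), Trim30a (-0.86 ± 0.15), Isg20 (-0.63 ± 0.16), Ddx58, the RNA sensor RIG-I (-0.39 ± 0.11), and the immunoproteasome genes Psmb9 and Psmb10 (-0.39 ± 0.10 and -0.34 ± 0.08). Only 12 of the 37 were bright, and Irf7 lay at 10 to 28 in K298E arrays and at 37 to 43 in vector arrays. Irf7 lost its call under 9 of the alternatives. Without replicate 3 of every group 2 of the 8 were still counted lower.

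Some genes of the hypoxia response and sugar use were lower at 0 h. Of 36 genes 8 were lower and 0 higher, with a median of -0.19, where 1.97% of all genes and 4.33% of bright genes were lower. In 16 of the 36 the K298E arrays lay below every vector array, as in 10.6% of all genes. Of the 36, 28 were bright, a larger share than among all genes. Ndrg1, a hypoxia-induced protein, had signals of 430, 478 and 455 in K298E arrays, against 736, 739 and 775 in vector arrays (-0.72 ± 0.10, adjusted p = 7.07e-06), and its 4 other probe sets gave -0.64 or lower. Ero1a, an oxidase of protein folding, was at 1452, 1410 and 1514 in K298E, against 1981, 2321 and 2325 in vector arrays (-0.59 ± 0.10). The rest were Ankrd37 (-0.97 ± 0.26), the oxygen sensor gene Egln3 (-0.59 ± 0.09), P4ha1 (-0.58 ± 0.13), Kdm3a (-0.50 ± 0.10), the phosphofructokinase gene Pfkp (-0.38 ± 0.08) and the glucose carrier gene Slc2a1 (-0.34 ± 0.09). With median centring 1 of the 8 passed, and without replicate 2 there were 2. Ankrd37 lost its call under 9 of the alternatives.

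Some targets of growth factor signalling were lower. Of 38 BCR/ABL, STAT5 and ERK feedback genes 5 were lower and 0 higher, where 1.97% of all genes and 4.33% of bright genes were lower. The 5 were Pim2, a survival kinase, Dusp7, a phosphatase of ERK, Il2ra, Phlda1 (-0.64 ± 0.10) and Cish, a STAT5-induced inhibitor of cytokine receptors (-0.43 ± 0.09). Pim2 had signals of 313, 320 and 335 in K298E arrays, against 521, 541 and 559 in vector arrays (-0.74 ± 0.08, adjusted p = 2.74e-09). Dusp7 (-0.70 ± 0.12) and Cish lie on chromosome 9. The other probe sets of Dusp7 differed by -0.37 and -0.20 and did not pass (adjusted p = 0.0889 and 0.707). Of 31 immediate early genes 4 were lower and 0 higher, beside the same shares of 1.97% and 4.33%. The 4 were Csrnp1 (-0.78 ± 0.14), which also lies on chromosome 9, the NF-κB inhibitor gene Nfkbia (-0.65 ± 0.10), Ier5 (-0.62 ± 0.11) and the AP-1 gene Junb (-0.52 ± 0.12). Nfkbia was at 1162, 1185 and 1086 in K298E arrays, against 1739, 1741 and 1903 in vector arrays.

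In the remaining lists few genes passed. Idi1, an isomerase of sterol synthesis, was the 1 of 29 sterol and fatty acid genes, at 1228, 1142 and 1214 in K298E arrays, against 1998, 2100 and 2094 in vector arrays (-0.79 ± 0.09, adjusted p = 1.53e-08). Of 32 glutathione, NRF2 and metal response genes Hmox1, the heme oxygenase (-0.66 ± 0.10), Mgst2 (-0.51 ± 0.08) and Gclc (-0.35 ± 0.10) were lower. Gclc had an adjusted p of 0.0498 and lost its call under 13 alternatives. Its other probe set averaged 152 in K298E arrays and 153 in vector arrays. Of 23 estrogen receptor genes and targets Esr1 itself was higher and Ltf, Car12 (-0.57 ± 0.15) and Bcl2 were lower, around a median of -0.03. Car12 lost its call under 9 of the alternatives.

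Some genes that passed at 0 h lay next to each other. Among 662 such genes with a known place, 31 pairs of neighbours among the measured genes went the same way, 15 higher and 16 lower, and 13 pairs went opposite ways. Of the 16 lower pairs 9 are on chromosome 9, among them Casp1 and Casp4, Birc2 and Birc3, and Sema7a with its neighbour Ubl7 (-1.05). Higher pairs included S100a8 and S100a9, Ppbp and Pf4, Csf2rb2 and Csf2rb, Vav1 (0.47) and Adgre1, and Prtn3 with Plppr3, a membrane protein gene. Plppr3, named after its values were seen, was at 31, 31 and 62 in K298E arrays, against 4, 7 and 17 in vector arrays (1.92 ± 0.38). The pairs are given as a description, since neighbours were not weighed against other arrangements.

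The WT fusion line at 0 h showed which of these differences also set K298E apart from another fusion line. Against WT arrays 552 genes were higher in K298E (3.03%) and 600 lower (3.3%). Both comparisons use the same K298E arrays, so their values are set side by side. Of the 15 highest genes against vector, 5 were above WT, 5 below WT and 5 did not pass against it. Above WT were Ppbp (1.87 ± 0.24), Clec11a (2.07 ± 0.29), Krt80 (0.96 ± 0.17), Pdp1 (0.80 ± 0.11) and Aven (0.99 ± 0.14). Clec11a was at 66, 68 and 82 in WT arrays, which overlap with vector, and at 303 to 318 in K298E arrays. Below WT were Ccl9 (-1.33 ± 0.13), Ifitm6 (-0.42 ± 0.12), Cd52 (-0.55 ± 0.11), Cebpa (-0.52 ± 0.14) and Upp1 (-0.37 ± 0.08). Ccl9 reached 1876, 2225 and 2351 in WT arrays, so the K298E arrays lay between the WT and the vector arrays. Esr1 was at 2607, 2589 and 2228 in WT arrays, and its difference of -0.78 ± 0.24 did not pass (adjusted p = 0.0513).

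On the lower side, 12 of the 15 lowest genes were below WT too, 0 were above it and 3 did not pass. Casp4 and Casp1 differed from WT by -2.89 ± 0.18 and -2.92 ± 0.18, Avil by -2.20 ± 0.17, Serpinf1 by -1.96 ± 0.25 and Tgm2 by -1.66 ± 0.10. The 3 that did not pass were Il6 (-0.36 ± 0.27), Sema7a (0.17 ± 0.13) and Ddc (0.05 ± 0.17). Sema7a was at 222, 236 and 247 in K298E arrays and at 201, 195 and 230 in WT arrays, against 756, 728 and 699 in vector arrays, and Il6 was at 67, 76 and 104 in WT arrays. For these genes both fusion lines were low beside vector. Among the lists, DNA replication genes had 23 higher and 0 lower of 43 against WT, amino acid response genes 0 higher and 17 lower of 34, and interferon genes 0 higher and 6 lower of 37. Hypoxia genes differed in this respect, with 7 higher and 3 lower of 36 against WT. Among all genes 3.03% were higher and 3.3% lower against WT. Ankrd37, for one, was at 69, 62 and 52 in K298E arrays, at 31, 25 and 21 in WT arrays and at 116, 122 and 128 in vector arrays.

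The signals of arrays taken after 4-HT do not enter the 0 h differences, although they do enter the estimate of spread behind the 0 h tests and the choice of 1 probe set for a gene. They read the same 2 lines in the presence of the ligand. Over the mean of 6, 9 and 12 h, 1242 genes were higher in K298E than in vector (6.83%) and 1164 lower (6.4%). Of the 305 genes higher at 0 h, 138 were higher then as well, which is 45.2% of the first set and 11.1% of the later set, and 13 were lower. Of the 358 genes lower at 0 h, 212 were lower later, 59.2% of the first set and 18.2% of the later one, and 27 were higher. Of the 15 highest genes 14 passed again in the same direction, all but Aven (-0.05 ± 0.08), and all 15 lowest did. Casp4 lay between 2 and 17 with a median of 11 on the 9 later K298E arrays, against 82 to 128 with a median of 90 on the 9 vector arrays. Ppbp lay between 222 and 342 with a median of 288 on the K298E arrays, against 2 to 15 with a median of 9 on the vector arrays.

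**Figure D4:**
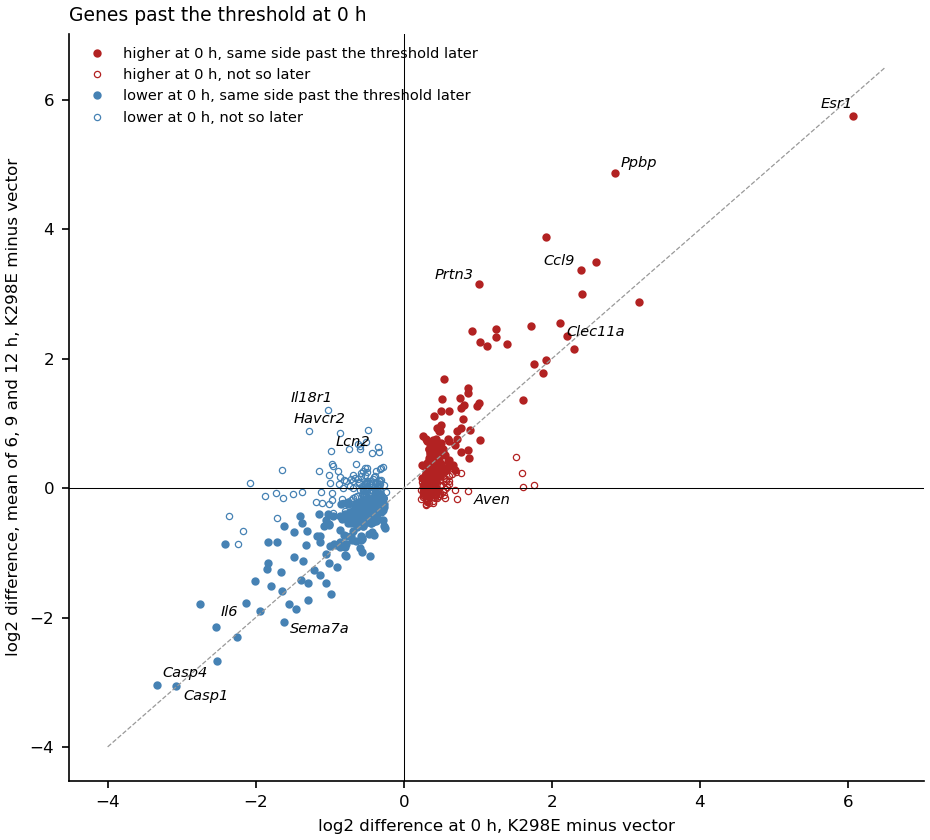
Log2 difference, K298E minus vector, at 0 h (horizontal) and as the mean of 6, 9 and 12 h (vertical) for the genes past the threshold at 0 h, 305 higher in red and 358 lower in blue. Filled points passed in the same direction later (138 and 212), open points did not, and the dashed line marks equal values. Casp4, Casp1 and Esr1 lie near that line, Ppbp and Prtn3 above it, and Il18r1, Havcr2 and Lcn2 passed on the opposite side later.

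The lists kept or lost their direction in different ways. Their counts are to be read beside the later shares of all genes, 6.83% higher and 6.4% lower. Bright genes passed more often: by chromosome, leaving out chromosome 9, 10.9% to 22.5% were higher and 4.13% to 17.6% lower. Amino acid response genes had 1 higher and 22 lower of 34 after 4-HT, with a median of -0.26. DNA replication genes had 4 higher and 4 lower of 43, with a median of -0.03, and ribosome biogenesis genes 2 higher and 9 lower of 43, with a median of -0.09. Hypoxia genes had 8 higher and 2 lower of 36, and interferon genes 4 higher and 5 lower of 37. Phagocyte oxidase, integrin and granulocyte receptor genes had 12 higher and 0 lower of 21, with a median of 0.47. The list medians at 0 h were -0.24, 0.22, 0.20, -0.19, -0.33 and 0.12 in the same order.

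Whether the difference itself changed was tested as the later minus the 0 h difference, and 614 genes passed (3.37%). The 0 h arrays both chose the genes named here and enter this test, and a move back toward 0 is partly built in by that choice, so no count over them is drawn. Il18r1 was lower at 0 h, at 57, 48 and 57 in K298E arrays, against 131, 104 and 106 in vector arrays, and later lay between 101 and 135 in K298E, against 31 to 81 in vector arrays, a change of 2.23 ± 0.19 (adjusted p = 3.86e-11). Havcr2, the inhibitory receptor TIM-3, went the same way, at 50, 42 and 37 in K298E, against 112, 106 and 107 in vector arrays at 0 h, and later at 68 to 158 in K298E, against 51 to 79 in vector arrays (2.17 ± 0.17). Prtn3 was already higher at 0 h and differed more later, at 1113 to 2268 in K298E, against 172 to 234 in vector arrays (2.13 ± 0.15). Aven, Rrp12, Ddx21, Hsph1 and Srm, all higher at 0 h, changed by -0.92 ± 0.16, -0.73 ± 0.19, -0.70 ± 0.10, -0.64 ± 0.08 and -0.62 ± 0.09. Later the signals of all 5 overlapped between the lines, and Srm passed on the lower side, at -0.23.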

How the data were processed

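Total RNA was hybridised to Affymetrix MOE430_2 arrays, and the authors deposited 1 table of linear signal intensity values, made with MAS5 per the submitters' processing notes. The MAS5 version and scaling details are not given in the sources used here. Arrays were grouped by their titles. Of 45101 probe sets 64 controls were left out, and 3 was added to each signal before log2 was taken, a constant equal to the 20th percentile of the table. limma 3.58.1 (R 4.3.3, statmod 1.5.0) was fitted to the means of 16 groups over 48 arrays, with 32 residual degrees of freedom and a trended prior. Tests were two-sided with Benjamini-Hochberg adjustment over all 45037 probe sets and a threshold of 0.05. The number of arrays limits the precision.

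Gene names came from the platform annotation: 34945 probe sets had 1 symbol, 932 several and 9160 none, and no symbol was updated through RefSeq. A gene was read from its probe set with the highest mean over all arrays. The text names the 15 highest and 15 lowest genes with a signal of at least 100 in the higher line, the 5 highest and 5 lowest at any signal, up to 3 members each way of each of 30 lists, 19 genes of the C/EBP, myeloid and cell cycle background, and the 5 genes each way whose difference changed most after 4-HT. Other genes were named after their values were seen. The members and lists were chosen with earlier results of these data known. Promoters were shown for the lowest and searched for the highest 2 genes other than Esr1, which the fusion carries, and the Cebpa protein is not shown. The fit was checked on simulated data. Alternatives were other added constants, array weights, the compared arrays alone, a filter on dim probe sets, median centring, quantile normalization, a replicate block, the median of all probe sets of a gene and leaving out replicates. Same-numbered K298E and vector arrays at 0 h deviated from their group means with correlations of -0.06, 0.05 and -0.06, so the numbers were not taken as pairs.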

Additional observations from a re-analysis of the deposited data

Results flagged for a closer look

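For the named genes below the difference between K298E and vector changed after 4-HT, by a test of the change itself (the mean difference at 6, 9 and 12 h minus that at 0 h, log2 scale, limma). The genes were chosen on the 0 h arrays, which also enter the change, so a move back toward 0 is partly built in by that choice, and their number is not a result. Among genes higher at 0 h, the difference grew for Ppbp by 2.01, Prtn3 by 2.13, Ccr1 by 1.52, Pirb by 1.24, Ifitm6 by 1.2, Cd52 by 1.1, Cebpa by 1.08 and Ccl9 by 0.99. It also grew for Tyrobp by 0.72, Emb by 0.67, Cyp11a1 by 0.62 and Adgre1 by 0.47. Genes higher at 0 h whose difference moved down were those of ribosome production, chaperones and others: it changed for Aven by -0.92, Rrp12 by -0.73, Ddx21 by -0.7, Hsph1 by -0.64 and Srm by -0.62, and for Trip13 by -0.61, Grwd1 by -0.6, Tfrc by -0.58 and Ahsa1 by -0.38. Among genes lower at 0 h the difference moved up for the surface receptors and secreted proteins Il18r1 by 2.23, Havcr2 by 2.17, Vsir by 1.71, Lcn2 by 1.55, Ccl5 by 1.48, Cd74 by 0.94, Fcgr3 by 0.61 and Ltb4r1 by 0.69. It moved up for the stress, hypoxia and signalling genes Irf7 by 1.35, Ern1 by 1.29, Ero1a by 1.2, Nfkbia by 1.02, Nfil3 by 0.89, Birc3 by 0.83, Hmox1 by 0.81, Ndrg1 by 0.75 and Dnajb9 by 0.72. It moved up as well for Hdc by 1.94, Avil by 1.03, Grb10 by 0.97 and Tgm2 by 0.44. No explanation was weighed for these changes.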

How the results depend on the processing

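Counts moved most under median centring and when replicates were left out. Leaving out replicates removes arrays, and the cause of the other changes was not tested. Leaving out replicates gave 276 to 771 probe sets, 58 to 219 genes higher and 124 to 268 genes lower for K298E against vector at 0 h (1050, 305 and 358 with all arrays). Against WT it gave 522 to 1384, 111 to 409 and 216 to 450 (1895, 552 and 600). After 4-HT it gave 2210 to 3142, 763 to 1009 and 610 to 867 (4018, 1242 and 1164), and for the change of the difference 267 to 764, 142 to 328 and 23 to 147 (988, 402 and 212). List members higher ran from 24 to 41 and lower from 39 to 65 (46 and 76). The lowest of each range came without replicate 2 of every group. Median centring, whose array medians are low whole numbers, gave 218, 33 and 112 at 0 h, 408, 126 and 109 against WT, 1890, 553 and 574 after 4-HT, and 164, 101 and 2 for the change, with 16 list members higher and 36 lower. Array weights gave 1779, 501 and 592 at 0 h, and 1537 probe sets with 353 genes lower for the change. The compared arrays alone gave 158 genes higher at 0 h, and 1146 probe sets with 285 genes higher against WT. With the replicate block, as an unpaired number only, 1103 probe sets, 316 genes higher and 381 lower passed at 0 h, 1954 probe sets against WT, 4097 after 4-HT and 1023 for the change, with 49 and 78 list members, and of 104 named genes that passed 1 was lost, Gclc. Without chromosome 9, an alternative chosen after seeing the data, 299 genes were higher and 272 lower, with 44 and 60 list members. The median of all probe sets of a gene, which has no test, turned the sign of Ahsa1 to -0.073 at 0 h, -0.031 against WT and 0.1137 for the change, and of Esr1 to -0.3759. Of the 104 named genes 56 passed under every alternative with a test.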

Other observations

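The same chromosome medians were computed for the Δ(177-191) line, whose chromosomes other than 9 are in no comparison above. At 0 h the median log2 difference of bright genes, Δ(177-191) minus vector, was -0.42 on chromosome 12, -0.21 on chromosome X and 0.13 on chromosome 9, and lay between -0.05 and 0.05 on the other chromosomes. The pattern was seen in these data and no test was run on it.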
